A study of Homo sapiens with 6 samples.

Results

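The genes described here are 10 whose RNA is widely used to read out signalling through the kinase ERK: the MAP kinase phosphatases DUSP4, DUSP5 and DUSP6, the Sprouty and SPRED inhibitors SPRY1, SPRY4, SPRED1 and SPRED2, and the PEA3 transcription factors ETV1, ETV4 and ETV5. They were chosen by symbol, and 10 of 10 have a single row among the 27734 gene rows of each library's table. RNA was sequenced from PC-3, a human prostate cancer line, at passages 20 to 30 per the labels. PC-3-GDC-R cells had been kept under continuous GDC-0068 (ipatasertib, an inhibitor of the AKT kinases), and PC-3-control cells were carried alongside with the vehicle DMSO, with 3 libraries of total RNA per group. Both groups derive from a single cell line, and the sources used here give neither the dose nor whether the resistant cells are a clone or a pool.

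ERK is switched on by phosphorylation at the end of the RAS-RAF-MEK cascade, and active ERK induces genes that then restrain the cascade. DUSP phosphatases remove the activating phosphates from ERK itself, Sprouty proteins interfere with signalling between growth factor receptors and RAF, and SPRED proteins bring the RAS-inactivating protein neurofibromin to the membrane. The PEA3 factors are ETS-family activators made in response to ERK signalling, and in some prostate cancers ETV1 or ETV4 is activated by gene fusion.

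Gene counts summed to between 35562400 and 44279078 fragments per library. Epithelial markers were high in every library and went both ways. KRT18 was at 375.1 to 415.4 FPKM in control and 420.3 to 441.1 FPKM in resistant libraries. EPCAM (147.5 to 177.0 and 132.3 to 134.2 FPKM), KRT19 (547.3 to 663.9 and 479.6 to 514.7 FPKM) and CDH1 (63.8 to 66.2 and 32.9 to 34.7 FPKM) were lower in resistant libraries, and KRT8 overlapped. The 5 summed to 1360 to 1536 FPKM in control and 1273 to 1342 FPKM in resistant libraries, without overlap. Of the prostate genes, KLK3, which encodes prostate-specific antigen, and its relative KLK2 were at 0. The protease gene TMPRSS2 was at 4.39 to 5.50 FPKM in control and 4.67 to 5.39 FPKM in resistant libraries, which overlapped. Of the 5 leukocyte markers, 4 had at most 0.187 FPKM in any library, while CD68, a lysosomal membrane protein, carried nearly all of a summed level of 15.5 to 16.3 FPKM in control and 34.8 to 36.8 FPKM in resistant libraries. The 3 endothelial markers summed to 0.825 to 1.10 FPKM in control and 0.297 to 0.470 FPKM in resistant libraries. PECAM1 carried most of that sum (0.8067 to 1.046 and 0.2268 to 0.3965 FPKM), while VWF was higher in resistant libraries and CDH5 overlapped. The 5 fibroblast markers summed to 2.29 to 3.19 and 1.34 to 1.72 FPKM. COL1A1 carried most of that sum (2.156 to 2.939 and 1.248 to 1.597 FPKM). COL3A1 was also lower in resistant libraries, and COL1A2, DCN and PDGFRB overlapped. The part of these markers in the results was not tested. Control replicate 1 stood apart by base composition: across 12503 genes its log2 deviations from the control mean followed transcript GC content with a Spearman's rho of -0.751. Since no label states that replicate libraries are separate cultures, p-values cover only the differences among these libraries, which may be technical. Levels are given as means ± SD (n = 3 libraries per group) and log2 fold changes, resistant minus control, ± SE of the edgeR fit.

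Resistant cells held more DUSP5 and ETV5 RNA and less SPRY4, ETV1 and ETV4 RNA than control cells, so the changed genes of the set did not share a direction. DUSP5 was 1.84-fold higher, SPRY4 1.99-fold lower and ETV1 1.65-fold lower, while ETV5 and ETV4 differed by less. The ETV4 call held in only 7 of 16 alternative fits, and those of DUSP5, SPRY4, ETV1 and ETV5 in all 16. Of the 10 genes, 2 rose, 3 fell and 5 missed the threshold in edgeR's quasi-likelihood test at a Benjamini-Hochberg adjusted p under 0.05 over 13070 tested genes, and the median log2 fold change was -0.07. Among all tested genes 24.5% rose and 25.7% fell, together 50.2%, with a median of -0.01, so the share of the 10 that was called is near that of the transcriptome. Without control replicate 1, 2 rose and 5 fell, against 31.9% and 32.9% of all tested genes, together 64.8%. The values of TMM-normalized counts did not overlap between groups for 6 of the 10 genes, against 60.9% of all tested genes. In a bulk culture, fewer cells that make an RNA and less of it per cell cannot be told apart.

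**Figure D1:**
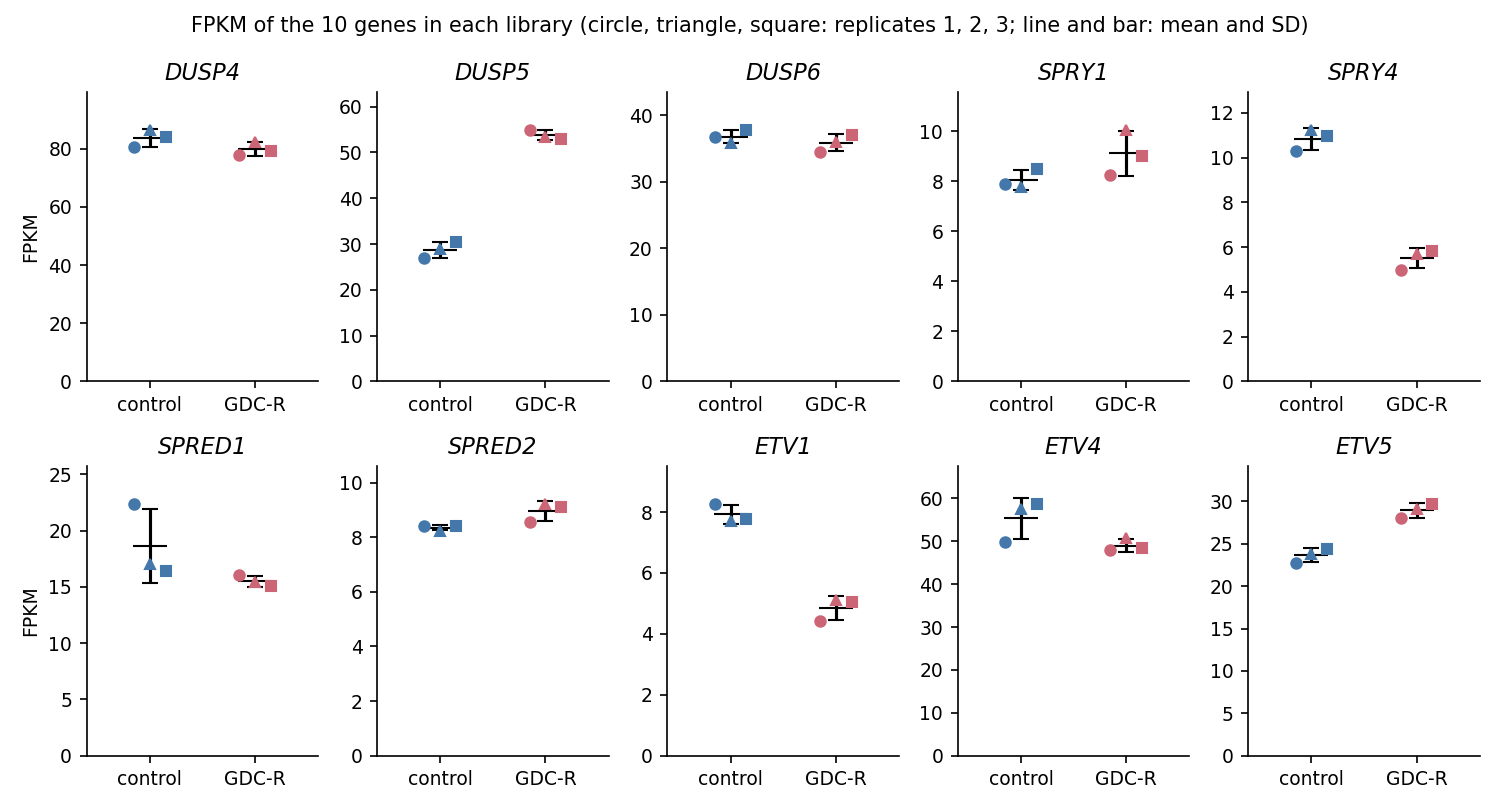
FPKM (fragments scaled to mRNA length and sequencing depth, as deposited) of each gene in the 3 control and 3 GDC-R libraries, with mean and SD; each axis starts at 0. DUSP5 lies between 27.0 and 30.4 in control and between 52.9 and 54.9 in GDC-R libraries, and SPRY4 between 10.3 and 11.2 and between 4.98 and 5.84, while DUSP4 and DUSP6 overlap.

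DUSP4 was the most abundant of the 10 genes per length in both groups, and ETV1 the least. In control libraries the order of mean FPKM was DUSP4 (83.7), ETV4 (55.3), DUSP6 (36.8), DUSP5 (28.7), ETV5 (23.7), SPRED1 (18.6), SPRY4 (10.8), SPRED2 (8.36), SPRY1 (8.06) and ETV1 (7.92). Neighbours in that order were separate in their range over the 3 libraries, except SPRED2 from SPRY1 and SPRY1 from ETV1, which overlapped. In resistant libraries DUSP5 stood above ETV4 and DUSP6, and SPRY4 below SPRED2 and SPRY1. There the ranges of SPRY1 and SPRED2 overlapped, as did those of SPRY4 and ETV1.

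Among the phosphatases, DUSP5 rose and neither DUSP4 nor DUSP6 passed the test. DUSP5 encodes a nuclear phosphatase specific for ERK, and lies on chromosome 10 at 112257625 to 112271302 on the plus strand (hg19, counted from 1). Its level was 27.0, 28.8 and 30.4 FPKM in control libraries 1 to 3 and 54.9, 53.4 and 52.9 FPKM in GDC-R libraries 1 to 3. Each resistant library was above each control library, by more than the spread within either group. The means were 28.7 ± 1.71 and 53.7 ± 1.07 FPKM and the log2 fold change 0.88 ± 0.05 (edgeR, adjusted p = 4.59e-06), and 5.15% of tested genes had a larger absolute change.

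DUSP4, another nuclear phosphatase, which acts on ERK and also on JNK, was at 80.4, 86.5 and 84.0 FPKM in control and 78.0, 82.5 and 79.2 FPKM in GDC-R libraries 1 to 3. The groups overlapped. Its log2 fold change was -0.09 ± 0.04 (95% interval -0.18 to 0.01; edgeR adjusted p = 0.114), and it passed once control replicate 1 was left out (-0.11, adjusted p = 0.00339) or a GC correction was made (-0.13, adjusted p = 0.00311). DUSP6, the cytoplasmic ERK phosphatase, was at 36.7, 35.9 and 37.9 FPKM in control and 34.6, 36.0 and 37.1 FPKM in GDC-R libraries 1 to 3. These values overlapped too, with a log2 fold change of -0.06 ± 0.05 (95% interval -0.16 to 0.05; adjusted p = 0.341). It lies on chromosome 12 at 89741602 to 89746636 on the minus strand.

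DUSP5 therefore made up a different part of the 3 phosphatase RNAs in the 2 groups. Per length, its share of their summed FPKM was 18.8%, 19.1% and 20.0% in control libraries 1 to 3 and 32.8%, 31.1% and 31.3% in GDC-R libraries 1 to 3. The ratio of DUSP5 to DUSP6 FPKM was 0.781 ± 0.0386 in control and 1.50 ± 0.0831 in resistant libraries, whereas that of DUSP4 to DUSP6 was 2.27 ± 0.119 and 2.23 ± 0.0822. The family sum was 144.1 to 152.3 FPKM in control and 167.5 to 171.8 FPKM in resistant libraries, without overlap. An exact permutation test of 3 against 3 libraries cannot give a two-sided p under 0.1, and none is given for these ratios.

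**Figure D2:**
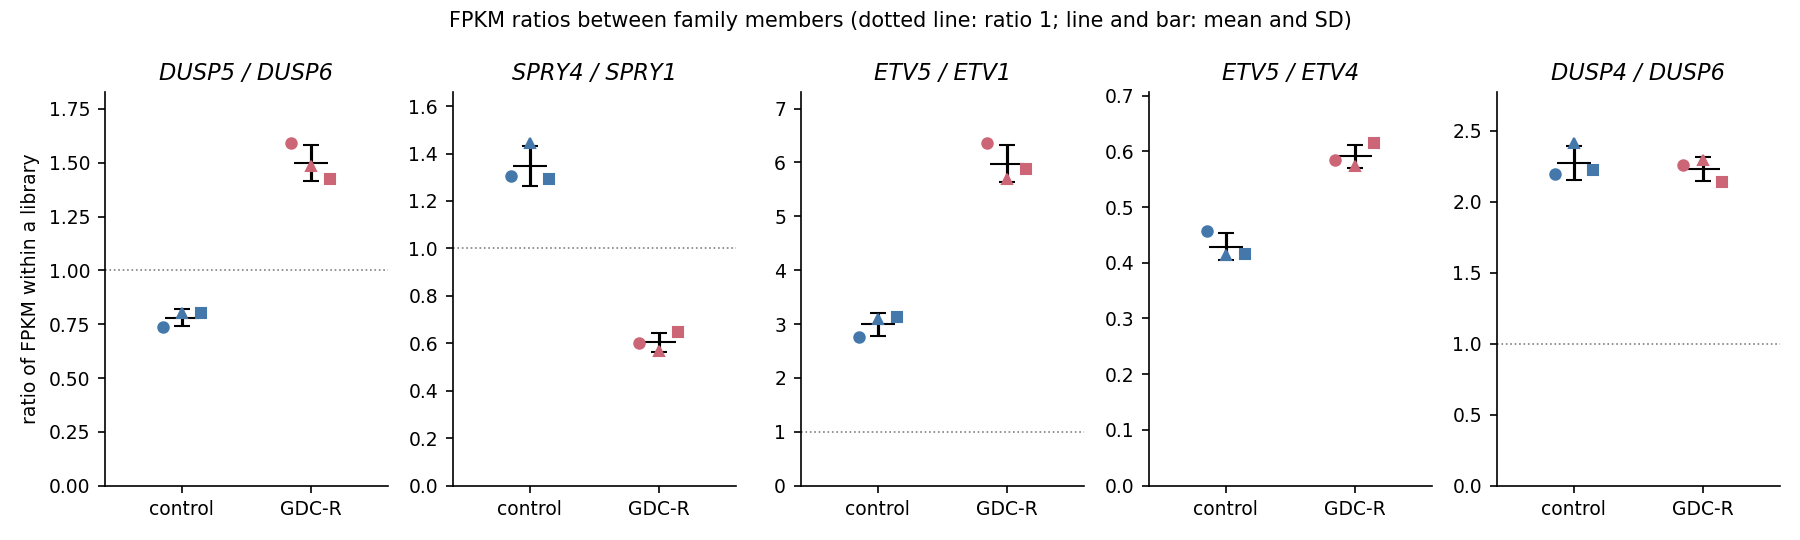
Ratio of FPKM between members of a family within each library, with mean and SD; the dotted line marks a ratio of 1 where it falls on the axis. DUSP5 over DUSP6 goes from 0.781 in control to 1.50 in GDC-R, SPRY4 over SPRY1 from 1.35 to 0.605 and ETV5 over ETV1 from 2.99 to 5.97, while DUSP4 over DUSP6 stays near 2.27 and 2.23.

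The promoters of DUSP6, SPRY4 and ETV1, a gene from each family with a RefSeq window, are printed here. DUSP6 was at a like level in both groups, and SPRY4 and ETV1 were lower in resistant cells. DUSP5 and ETV5, which rose, have no window, so the promoters cannot be compared by direction of change. Windows run from 250 bases before to 50 after a transcript start (RefSeq, GRCh38.p14), 300 bases in all, and 6 of the 10 genes have at least 1. DUSP4, DUSP5, ETV4 and ETV5 have none in the table. DUSP6 and SPRY4 have 1 window each and ETV1 has 6, of which the one with the most matches is printed. The windows were searched on both strands for the octamers TGAATGAA and TGAATGGA, which the repressor Capicua (CIC) binds, the ETS core CCGGAA and the AP-1 site TGACTCA. Capitals mark matches, and bases run 5′ to 3′ on the gene's strand.
DUSP6, chr12:89352452-89352751, minus strand: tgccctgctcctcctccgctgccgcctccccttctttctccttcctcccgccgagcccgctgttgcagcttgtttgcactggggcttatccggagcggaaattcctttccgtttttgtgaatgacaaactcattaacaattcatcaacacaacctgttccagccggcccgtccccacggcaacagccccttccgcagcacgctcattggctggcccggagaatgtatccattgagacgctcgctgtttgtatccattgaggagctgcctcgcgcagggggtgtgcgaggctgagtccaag
SPRY4, chr5:142324198-142324497, minus strand: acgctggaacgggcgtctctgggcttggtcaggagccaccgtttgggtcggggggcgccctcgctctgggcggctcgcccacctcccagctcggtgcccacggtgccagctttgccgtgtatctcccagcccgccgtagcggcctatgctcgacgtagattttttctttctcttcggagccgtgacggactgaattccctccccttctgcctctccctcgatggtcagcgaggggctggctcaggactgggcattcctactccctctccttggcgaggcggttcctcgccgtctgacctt
ETV1, chr7:13991376-13991675, minus strand: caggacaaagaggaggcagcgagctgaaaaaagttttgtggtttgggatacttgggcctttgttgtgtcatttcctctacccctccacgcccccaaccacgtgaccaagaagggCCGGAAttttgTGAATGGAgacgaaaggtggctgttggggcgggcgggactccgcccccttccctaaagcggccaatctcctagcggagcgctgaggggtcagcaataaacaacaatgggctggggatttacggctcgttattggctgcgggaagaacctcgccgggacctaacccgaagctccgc

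Of the 6 ETV1 windows 3 held no match, and the printed one held an ETS core, which begins 136 bases before the transcript start, and the Capicua octamer TGAATGGA, which begins 125 bases before it. Both are on the gene's strand and do not overlap. Capicua is known as a repressor of the PEA3 genes that ERK signalling relieves. Among 35116 windows of 300 bases, 2.63% held either Capicua octamer, 1.03% TGAATGGA, 17.2% the ETS core and 4.95% the AP-1 site. Among 57 genes with 6 windows each, 15.8% held either Capicua octamer in at least 1 of them. The SPRY4 and DUSP6 windows held none of these letters. Of the other windows, a second one of SPRY1 held an ETS core 67 bases before its start, 2 overlapping ones of ETV1 the same ETS core, and another one of SPRED2 an AP-1 site. A match is a description of letters, and no binding was measured here.

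Among the Sprouty and SPRED genes, SPRY4 fell and SPRY1, SPRED1 and SPRED2 did not pass. SPRED1 stayed short of the threshold in only 8 of 16 alternative fits, and passed as lower in the others. SPRY4, an inhibitor of receptor signalling to RAS and RAF, lies on chromosome 5 at 141689992 to 141704620 on the minus strand (hg19), and its promoter is the second printed above. Its level was 10.3, 11.2 and 11.0 FPKM in control and 4.98, 5.70 and 5.84 FPKM in GDC-R libraries 1 to 3. Every resistant library was below every control library. The log2 fold change was -0.99 ± 0.07 (edgeR, adjusted p = 1.26e-05), and 3.79% of tested genes had a larger absolute change. The noncoding model SPRY4-IT1 lies inside SPRY4 and held 7 to 21 fragments per library, against 928 to 2412 for SPRY4.

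SPRY1, the other Sprouty gene of the set, was at 7.88, 7.80 and 8.50 FPKM in control and 8.26, 10.1 and 9.03 FPKM in GDC-R libraries 1 to 3. Resistant replicate 2 was the highest, and the groups overlapped (log2 fold change 0.16 ± 0.08; 95% interval -0.03 to 0.35; edgeR adjusted p = 0.139). The FPKM ratio of SPRY4 to SPRY1 was 1.35 ± 0.0843 in control and 0.605 ± 0.0399 in resistant libraries. SPRED2, a neurofibromin adaptor, was at 8.42, 8.23 and 8.41 FPKM in control and 8.55, 9.22 and 9.12 FPKM in GDC-R libraries 1 to 3. Its log2 fold change was 0.08 ± 0.06, with a 95% interval of -0.04 to 0.21 and an adjusted p of 0.245.

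SPRED1, the related adaptor that is mutated in Legius syndrome, was at 22.4, 17.1 and 16.4 FPKM in control and 16.1, 15.4 and 15.1 FPKM in GDC-R libraries 1 to 3. Control replicate 1 was well above the other control libraries, which were close to the resistant ones. The log2 fold change was -0.28 ± 0.11 (edgeR adjusted p = 0.0609). Without control replicate 1 it was -0.12 and passed (adjusted p = 0.00491), and with a GC correction it was -0.19 (adjusted p = 0.00728). SPRED1 transcripts are poor in GC (38.9%). SPRED1 had the largest deviation of the 10 genes in control replicate 1, 0.29 above the control mean on the log2 scale. The summed level of the Sprouty and SPRED genes of the set was 44.27 to 48.95 FPKM in control and 37.85 to 40.38 FPKM in resistant libraries, without overlap.

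The PEA3 factors moved apart: ETV1 and ETV4 fell and ETV5 rose. ETV1, on chromosome 7 at 13930856 to 14031050 on the minus strand, was at 8.26, 7.72 and 7.78 FPKM in control and 4.41, 5.11 and 5.06 FPKM in GDC-R libraries 1 to 3. The groups were far apart against the spread within each (log2 fold change -0.72 ± 0.07; edgeR, adjusted p = 7.31e-05). The Capicua octamer is in 1 of its 6 promoter windows.

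ETV5, on chromosome 3 at 185764106 to 185826901 on the minus strand, was at 22.8, 23.9 and 24.4 FPKM in control and 28.0, 29.1 and 29.7 FPKM in GDC-R libraries 1 to 3. The resistant libraries were all above the control libraries, by a smaller margin than for DUSP5 (log2 fold change 0.27 ± 0.05; adjusted p = 0.00154). The ratio of ETV5 to ETV1 FPKM was 2.99 ± 0.209 in control and 5.97 ± 0.344 in resistant libraries, and that of ETV5 to ETV4 was 0.429 ± 0.0242 and 0.591 ± 0.0211. The family sum overlapped between groups, at 80.8 to 90.9 FPKM in control and 80.4 to 84.9 FPKM in resistant libraries.

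ETV4, the most abundant PEA3 factor in every library, was at 49.8, 57.5 and 58.7 FPKM in control and 47.9, 50.7 and 48.3 FPKM in GDC-R libraries 1 to 3. Control replicate 1 was the lowest control library, below resistant replicate 2 in FPKM and just above it in normalized counts (132.9 and 132.5 CPM). Its log2 fold change of -0.19 ± 0.06 (edgeR adjusted p = 0.0302) was -0.26 without control replicate 1 (adjusted p = 1.52e-06). The call was lost without control replicate 2 (-0.17) or 3 (-0.14) and without resistant replicate 1 (-0.17), 2 (-0.21) or 3 (-0.18). ETV4 lies on chromosome 17 at 41605211 to 41623800 on the minus strand, and its model overlaps that of the RNA helicase DHX8 on the plus strand. DHX8 rose from 14.2 ± 0.816 to 16.4 ± 0.179 FPKM, and since the counting is not stated to use strand, fragments of the shared stretch cannot be assigned.

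**Figure D3:**
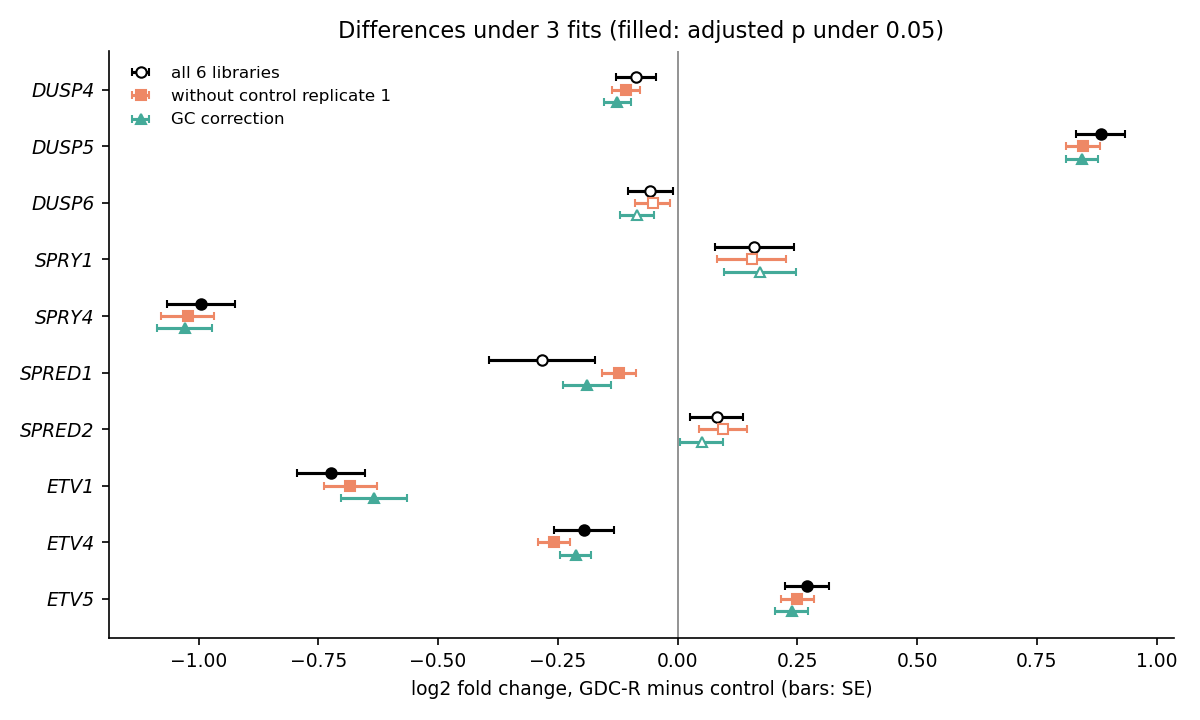
Log2 fold change (GDC-R minus control) of each gene with its standard error, from all 6 libraries, after leaving out control replicate 1, and after a GC correction; filled symbols have an adjusted p under 0.05. DUSP5, SPRY4, ETV1, ETV4 and ETV5 are filled in all 3, DUSP4 and SPRED1 in the other two, and SPRED1 moves from -0.28 to -0.12 without control replicate 1.

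The control libraries separated by the base composition of these transcripts. ETV1 (38.1% GC) and SPRED1 (38.9% GC) were above the control mean in control replicate 1, by 0.08 and 0.29 on the log2 scale, and ETV4 (60.8% GC) and DUSP5 (55.9% GC) were below it, at -0.14 and -0.07. SPRED2, SPRY1, SPRY4, DUSP4, DUSP6 and ETV5, with 44.8% to 51.4% GC, deviated by -0.06 to 0.02. The calls of DUSP5, SPRY4, ETV1 and ETV5 held with a GC correction, at 0.84, -1.03, -0.63 and 0.24, and without control replicate 1, at 0.85, -1.02, -0.68 and 0.25.

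**Figure D4:**
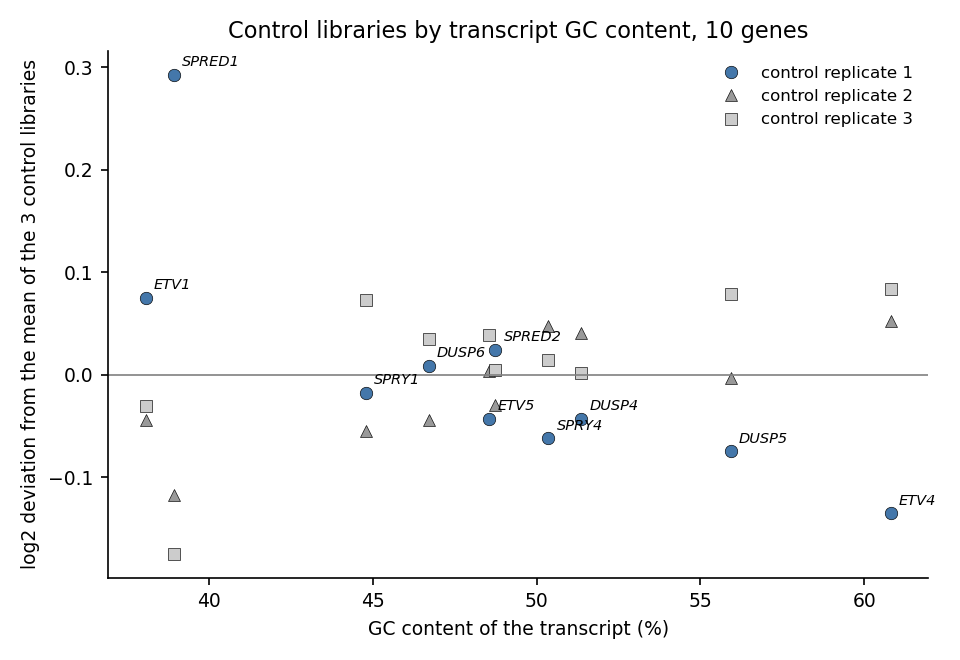
Log2 deviation of each control library from the mean of the 3 control libraries (vertical axis) against the GC percentage of the gene's longest transcript (horizontal axis) for the 10 genes. In control replicate 1 SPRED1, at 38.9% GC, is 0.29 above the mean and ETV4, at 60.8% GC, is at -0.14.

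Other genes that act on or beside ERK were taken from 9 lists, chosen with earlier results of these data known. Their counts stand beside the 24.5% of all tested genes that rose and the 25.7% that fell. These shares were 30.8% and 31.7% after the GC correction, 31.9% and 32.9% without control replicate 1, 32.3% and 33.2% with both, and 19.5% to 20.4% and 18.1% to 18.7% without 1 of the resistant libraries. All 3 receptor-level feedback inhibitors rose. IL17RD, which restrains FGF receptor signalling, rose from 9.15 ± 0.363 to 19.5 ± 0.409 FPKM (1.07 ± 0.05 on the log2 scale; edgeR adjusted p = 1.43e-06). ERRFI1, an inhibitor of the EGF receptor kinase, rose from 55.2 ± 1.34 to 86.3 ± 0.437 FPKM (0.62 ± 0.04). LRIG1, a membrane protein that lowers EGF receptor levels, was chosen with its values known and rose from 0.680 ± 0.0846 to 2.01 ± 0.154 FPKM (1.55 ± 0.11).

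Among 6 other MAP kinase phosphatases, 1 rose, 2 fell and 3 missed the threshold, with a median log2 fold change of 0.09. DUSP10, which acts on stress-activated kinases, rose by 1.02 ± 0.10 on the log2 scale, and DUSP7, a relative of DUSP6, had a log2 fold change of -0.22 ± 0.05. DUSP16, also a phosphatase of stress-activated kinases, had one of -0.32 ± 0.06; DUSP10 and DUSP16 are below the naming level of 5 FPKM and were chosen with their values known. SPRY2, the only tested gene among the other Sprouty and SPRED genes, did not pass (12.5 ± 0.243 and 11.7 ± 0.468 FPKM; edgeR adjusted p = 0.0938), and its groups did not overlap; it passed without control replicate 1 (-0.12) and after a GC correction (-0.15).

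Binding partners of Sprouty and SPRED proteins split evenly. From 8 tested genes, 2 rose, 2 fell and 4 missed the threshold, with a median of -0.14. NEDD4, a ubiquitin ligase that targets Sprouty, rose by 0.51 ± 0.08 on the log2 scale and SIAH2, another ubiquitin ligase, by 0.22 ± 0.05. PPP2CA, a catalytic subunit of protein phosphatase PP2A, had a log2 fold change of -0.37 ± 0.07. NF1, which encodes neurofibromin, fell from 6.72 ± 0.400 to 5.92 ± 0.203 FPKM (-0.20 ± 0.06), a call lost without resistant replicate 1 (-0.17) or 2 (-0.19). The number of partners that fell was 5 after a GC correction, where 31.7% of all tested genes fell, and 1 without resistant replicate 1 or 2, where 18.7% and 18.1% fell. It was also 1 with limma-trend, where 22.2% fell.

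Repressor and turnover genes of the PEA3 factors were 8, of which 3 rose, 4 fell and 1 missed the threshold, with a median of 0.00. TRIB2, a pseudokinase of the COP1 ubiquitin ligase system, fell from 5.93 ± 0.225 to 3.55 ± 0.169 FPKM (log2 fold change -0.76 ± 0.07), while its relative TRIB1 rose by 0.20 ± 0.04. CUL4A, a ubiquitin ligase scaffold, had a log2 fold change of -0.19 ± 0.04, and ATXN1L, a partner of Capicua, rose by 0.15 ± 0.05, a call lost without control replicate 2 or 3 or resistant replicate 2 or 3 (0.14 to 0.16). CIC itself, chosen with its values known, was at 1.82 ± 0.116 and 1.51 ± 0.0656 FPKM (-0.29 ± 0.08; edgeR adjusted p = 0.0123). Without resistant replicate 2, and also with limma-trend, 2 genes of this list fell.

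Other ETS factors also went both ways: 5 of 15 rose, 4 fell and 6 missed the threshold, with a median of -0.01. ETS1, a target of ERK phosphorylation, rose from 26.5 ± 1.62 to 51.7 ± 1.29 FPKM, by 0.95 ± 0.06 on the log2 scale, and ELK3, a ternary complex factor, rose by 0.84 ± 0.05. SPDEF, an ETS factor of prostate epithelium, fell from 44.3 ± 5.16 to 16.8 ± 1.75 FPKM (-1.42 ± 0.10), and the epithelial factor EHF had a log2 fold change of -0.68 ± 0.06. Without control replicate 1, 8 rose, against 31.9% of all tested genes.

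Genes of the cascade itself went both ways. From 22 tested genes, 3 rose, 4 fell and 15 missed the threshold, with a median of 0.00. MRAS, which joins SHOC2 in a complex that activates RAF, rose from 2.93 ± 0.302 to 5.85 ± 0.231 FPKM, by 0.98 ± 0.08 on the log2 scale, and RRAS rose by 0.71 ± 0.07. SHOC2 had a log2 fold change of -0.39 ± 0.12, lost without resistant replicate 1 (-0.34) or 2 (-0.38), and HRAS one of -0.29 ± 0.06. With the GC correction 7 rose and 7 fell, without control replicate 1 these were 8 and 6, and with both 8 and 6. The number that fell was 1 without resistant replicate 1, 1 without resistant replicate 2 and 2 without resistant replicate 3. Of 2 FGF receptors tested, 0 passed in edgeR, DESeq2 or limma-trend, and 0 had an unadjusted p under 0.05 in edgeR; FGFR4 was at 10.6 ± 1.10 and 10.7 ± 0.532 FPKM.

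Of 9 other ERK output genes tested, 7 rose, 1 fell and 1, FOSL1, missed the threshold, where 24.5% of all tested genes rose and 25.7% fell. Their median log2 fold change was 0.43, that of the 10 genes -0.07 and that of all tested genes -0.01. The list was chosen with earlier results of these data known, so these counts and medians are only a description. LIF, a cytokine, rose from 18.9 ± 1.02 to 54.2 ± 0.692 FPKM (1.50 ± 0.05), HMGA2, a chromatin protein, by 0.70 ± 0.10 and CCND1, which encodes cyclin D1, by 0.45 ± 0.04 on the log2 scale. PHLDA1, a pleckstrin homology protein, fell from 84.5 ± 8.30 to 60.5 ± 0.876 FPKM (-0.50 ± 0.07). Many of these genes are also induced by other pathways, and EGR1 and FOS were below the level needed for testing, at 0.0583 ± 0.0467 and 0.375 ± 0.0322 FPKM in control and 0.115 ± 0.0297 and 0.293 ± 0.0549 FPKM in resistant libraries.

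**Figure D5:**
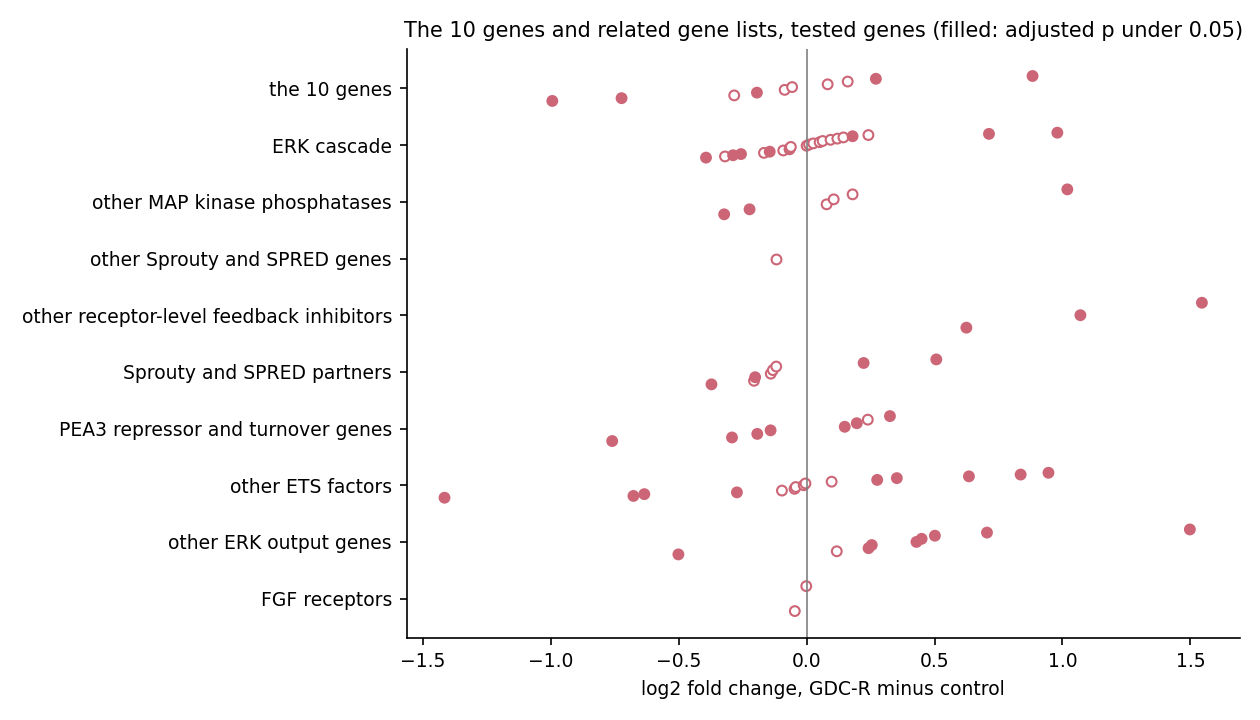
Log2 fold change (GDC-R minus control) of each tested gene in the set of 10 and in 9 related lists, 1 symbol per gene; filled symbols have an adjusted p under 0.05. The 10 genes run from -0.99 to 0.88 on both sides of 0, while all 3 receptor-level feedback inhibitors lie above 0.

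Around DUSP5, SPRY4 and ETV1 the neighbouring genes had medians near 0. The 10 tested genes nearest DUSP5 had a median log2 fold change of -0.01, those nearest SPRY4 -0.06 and those nearest ETV1 -0.07. The next tested gene beyond ETV1, ANKMY2, had a log2 fold change of -0.70, close to that of ETV1. Around DUSP5 1 of these neighbours rose and 2 fell, around SPRY4 2 and 2, and around ETV1 1 and 3. ETV4 differed in sign from its neighbourhood, where 6 of 10 genes rose and 0 fell. These neighbours include DHX8 (0.18), whose model overlaps that of ETV4. DUSP4 lay among genes of which 0 of 10 rose and 7 fell. Among all tested genes 24.5% rose and 25.7% fell.

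The levels most like those of DUSP5 over the 6 libraries, by root mean square distance of centred log2 counts, were those of DHRS1, TNIP1 and HES2 (distances 0.03). For SPRY4 they were PTGES (0.04), NDRG1 (0.05) and FZD4 (0.05), and for ETV1 they were ANKMY2 (0.04), MRPL47 (0.05) and HEY1 (0.05). With 6 libraries in 2 groups and 50.2% of genes called, such likeness describes a size of change in common.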

How the data were processed

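RNA was measured in 3 control and 3 GDC-R libraries of PC-3 cells. Per the submitters' processing notes, TopHat2 2.0.6 and hg19 were used. How fragments were counted, on which gene models and with which strand setting is not given in the sources used here. Per the file headers, each library has its own table of whole-number fragment counts, which the authors did not normalize. FPKM, as deposited, equals the fragment count over the mRNA size and a fragment total that is the same for all genes of a library. FPM, treated as a score here, is the deposited count over that total and served only to recover it (gene counts sum to 5.56% to 5.84% more).

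Of 27734 rows, 849 with a repeated symbol were left out. The 13070 genes whose FPKM averaged 1 or more entered edgeR 4.0.16's quasi-likelihood test (TMM, no covariate) at a Benjamini-Hochberg threshold of 0.05. Intervals are 95% from that fit, with standard errors from its F statistic. TMM factors were 0.985 to 1.009 and the common biological coefficient of variation was 7.17%. GC content was corrected by loess offsets (span 0.3) on that of the longest GENCODE 29 transcript, known for 95.7% of tested genes. Alternatives were DESeq2 1.42.0, limma-trend (limma 3.58.1) on log2(FPKM + 1) and log2(FPKM + 0.1), RLE factors, library totals, other filters, a replicate block and each library left out. The edgeR step was tested on simulated data with known changes, in which every gene had the common coefficient of variation. It recovered 48% of 1.25-fold, 94% of 1.5-fold and 98% of 2-fold changes, with 13 false calls among 12870 unchanged genes. Smaller changes and a GC effect in control replicate 1 were not simulated. Some marker genes that were looked up are not reported here.

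The 10 genes and the lists were chosen with earlier results of these data known. Named from each list were up to 4 passing genes with the largest change and at least 5 FPKM in the higher group, or the most abundant gene where none passed. Genes outside this rule are marked.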

Additional observations from a re-analysis of the deposited data

How the results depend on the processing

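DUSP5, SPRY4, ETV1 and ETV5 kept their direction and call in all 16 alternatives, with ranges of 0.84 to 0.93, -1.04 to -0.86, -0.75 to -0.61 and 0.22 to 0.30 on the log2 scale. Deviations from the group mean were hardly correlated between control and resistant libraries of the same replicate number (Pearson's r -0.01, 0.05 and -0.09). Because those of control replicate 1 followed GC content, these correlations cannot decide whether the libraries were paired. With the replicate block 2 genes rose and SPRED1 passed at -0.27 (edgeR adjusted p = 0.0218), so 4 fell. In that fit 23.4% of all tested genes rose and 24.7% fell. The number of the 10 that rose was 2 in every alternative, where 17.3% to 32.3% of all tested genes rose. The number that fell was 5 with the GC correction (31.7% of all tested genes fell), 6 with the GC correction and without control replicate 1 (33.2%), and 2 to 5 with a library left out (18.1% to 32.9%). DUSP4 passed with the GC correction (-0.13) and with it and without control replicate 1 (-0.13), and lay between -0.11 and -0.061 with a library left out. DUSP6 passed with the GC correction and without control replicate 1 (-0.088). SPRED1 passed with DESeq2 (-0.28), without a filter (-0.31), with the GC correction (-0.19) and with it and without control replicate 1 (-0.13), and ranged from -0.36 to -0.12 with a library left out. ETV4 lost its call with log2(FPKM + 1) and log2(FPKM + 0.1) (-0.17 each), library totals (-0.17) and a filter of 5 FPKM (-0.16), and ranged from -0.26 to -0.14 with a library left out. The causes of these moves were not tested. The 9 lists, in the order of ERK cascade, other phosphatases, other Sprouty and SPRED genes, receptor-level inhibitors, partners, PEA3 repressor and turnover genes, ETS factors, output genes and FGF receptors, held 22, 6, 1, 3, 8, 8, 15, 9 and 2 tested genes. Over all lists together 24 of these genes rose and 17 fell, where 24.5% of all tested genes rose and 25.7% fell. The number of list genes that fell was 26 with the GC correction, where 31.7% of all tested genes fell. It was 11 to 21 with a library left out, where 18.1% to 32.9% fell. FGFR4, never called, changed sign from -0.0017 to 0.00075 with DESeq2, 0.018 with log2(FPKM + 1), 0.0203 with log2(FPKM + 0.1), 0.0202 with library totals, 0.00076 with RLE factors, 0.0304 with a filter of 5 FPKM, 0.00031 with the replicate block and -0.0769 to 0.0625 with a library left out.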
